A study of Mus musculus with 6 samples.

Results

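Glutamate and GABA receptor subunits were examined in neural stem cells grown from embryonic mouse brain. The members were the genes of the AMPA (Gria), kainate (Grik), NMDA (Grin) and metabotropic (Grm) glutamate receptors and of the GABA-A (Gabr) and GABA-B (Gabbr) receptors whose symbol was the single one given to a probe set, and 40 of 19938 genes met this rule. Each gene was read from its probe set with the highest mean, and Gabrb2 alone among the members had more than 1 probe set, namely 3. The design text states that cultures were sought from 3 independent females. Total RNA came from wild type C57BL/6 embryos, labelled female, at embryonic day 17.5, with 3 arrays for cultures of the third ventricle and 3 for cultures of the lateral ventricle, both from the subventricular zone. Both groups shared the same medium, which held FGF and EGF at 20 ng/ml each in low-attachment dishes. These are cultured cells that had been expanded in growth factors, and the labels do not say which animal stands behind an array.

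Ionotropic glutamate receptors are cation channels built from 4 subunits of one class, and metabotropic ones are G protein-coupled. AMPA and kainate channels carry fast current, NMDA channels need a glycine-binding Grin1 subunit, and GABA-A receptors are chloride channels of alpha, beta and mostly gamma subunits. GABA-B receptors are G protein-coupled dimers of Gabbr1 and Gabbr2. In the embryonic brain, progenitors respond to both transmitters before synapses form, and GABA depolarises them because they take up chloride.

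Values are log2 RMA signals. A member was counted as above background in an array when its value was higher than the 95th percentile of 1027 olfactory receptor genes there, which lay at 5.07 to 5.12 in the third and 5.03 to 5.16 in the lateral ventricle arrays. Probe sets differ in how brightly they bind, so values are compared between arrays and against this gauge, not between genes.

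Of the 40 members, 14 (35.0%) lay above background in all 6 arrays, 9 in some arrays and 17 in none, while 55.3% of all genes lay above it in all 6. The 14 were Gria2, Gria3, Gria4, Grik2, Grik4, Grik5, Grin3a, Grin3b, Grm2, Grm3, Grm5, Gabbr1, Gabbr2 and Gabrg1. Glutamate receptor genes made up 11 of them, out of 22 measured, and GABA receptor genes 3 out of 18. At the stricter 99th percentile, 8 members stayed above it, namely Gria2, Gria3, Gria4, Grik2, Grm3, Grm5, Gabbr1 and Gabrg1, and with the 95th percentile of 167 vomeronasal receptor genes 22 did.

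**Figure D1:**
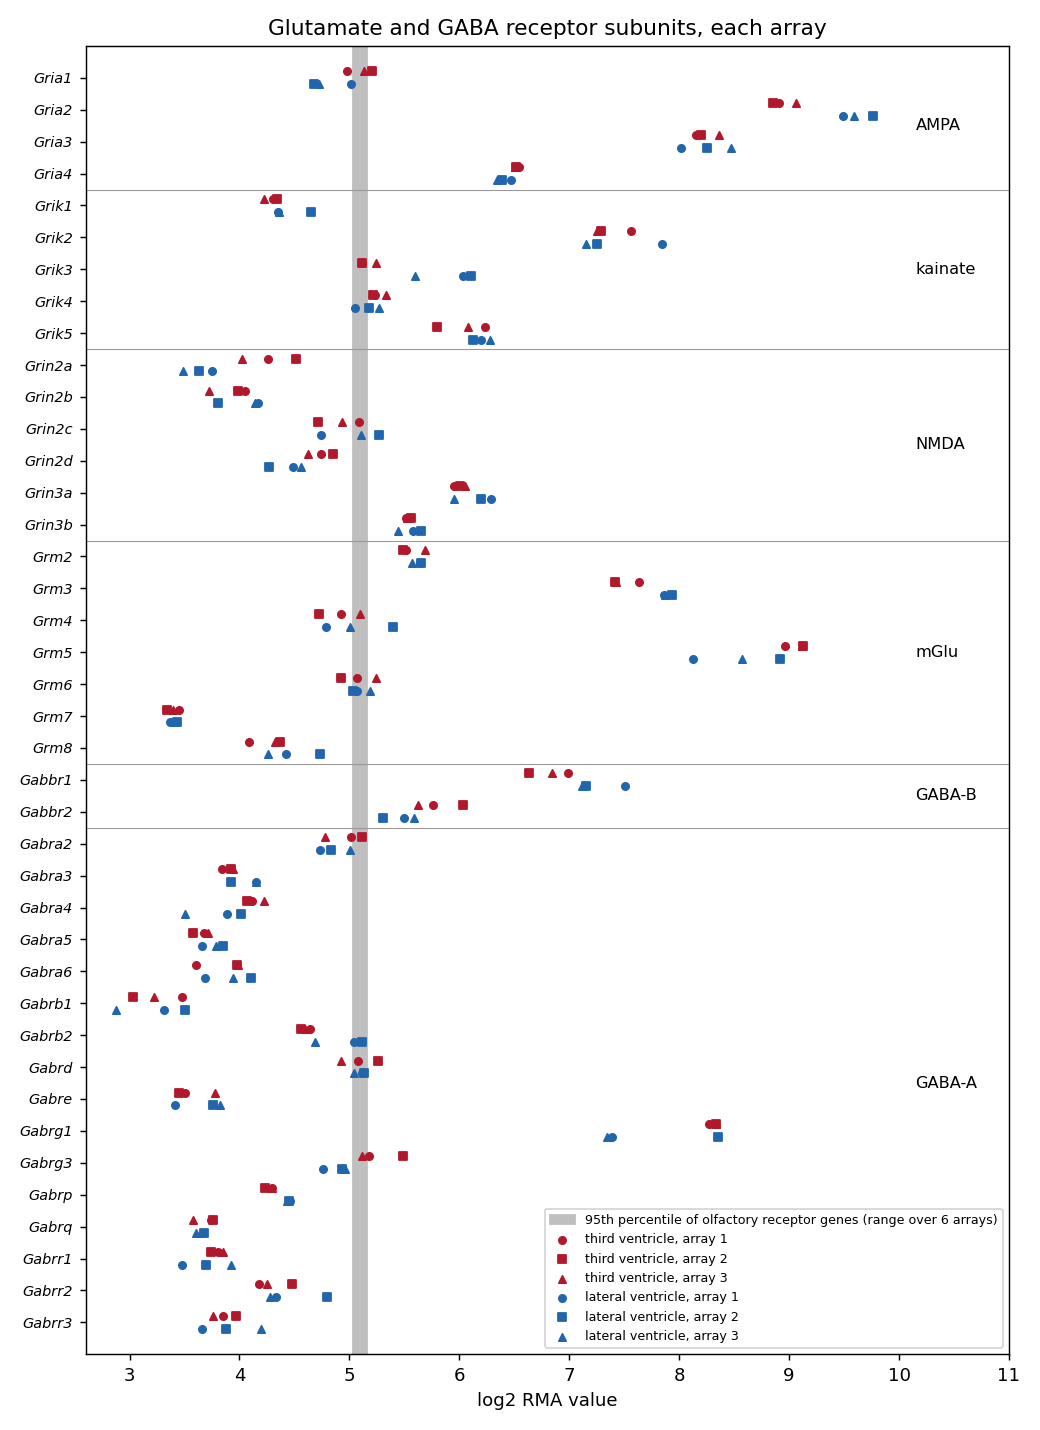
Log2 RMA value (x axis) of each of the 40 receptor subunits (rows, by receptor class) in the 3 arrays of the third ventricle (red) and the 3 of the lateral ventricle (blue), with the background gauge as a grey band at 5.03 to 5.16. Most GABA-A subunits lie on or left of the band, apart from Gabrg1, while Gria2, Gria3, Gria4, Grik2, Grm3 and Grm5 lie to its right in every array.

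No receptor subunit passed the comparison of the third with the lateral ventricle. The count was 0 of 40 at an adjusted p below 0.05 (limma over all genes), against 46 of 19938 genes (0.231%). At an unadjusted p below 0.05 there were 13 members (32.5%), against 12.6% of all genes, and the third ventricle value was the higher in 8 of the 13. Of the 13, Grin2a, Grin2d and Gabra4 were below background in all 6 arrays. Groups did not overlap for 14 members (35.0%), 7 higher and 7 lower, against 17.0% of all genes. Of these, 6 lay above background in all 6 arrays. Gabra4, Gabrp, Grik1, Grin2a and Grin2d were below it in all 6, and no difference in level is read from them. The median difference was -0.048 over the 40 members and -0.018 over all genes.

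Lateral ventricle array 2 was closer to the other region than to its own. Over all genes its r was 0.991 with all 3 arrays of the third ventricle, against 0.980 and 0.982 with lateral ventricle arrays 1 and 3. Without it, limma passed 5 of 40 members (12.5%), against 1644 of 19938 genes (8.25%). The 5 were Gabrg1, Grm5 and Grin2a as higher and Gria2 and Grik3 as lower in the third ventricle cultures. Lateral ventricle array 2 was singled out for its likeness to the third ventricle arrays. Leaving it out for that reason can widen a difference and narrow the spread of the lateral ventricle group. Values without it, here and below, are therefore a description and not support for a difference. Without lateral ventricle array 3, Grik3 passed, which made 1 of 40 members against 0.100% of all genes, and without any other single array 0 of 40 did.

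The 250 bases before the start of Gria2 and Grik3, the members with the largest differences toward lower values, and of Gabrg1 and its neighbour Gabra2, of which the first was above background in 6 arrays and the second in 1, are shown first, from RefSeq on GRCm38.p6. The windows are chr3:80802836-80803085 (minus strand), chr4:125490446-125490695 (plus strand), chr5:70842618-70842867 (minus strand) and chr5:71095850-71096099 (minus strand). Capitals mark matches, on either strand, to 4 motifs: the GC box GGGCGG, the CCAAT box CCAAT, the TATA box TATAAA, and a core of the RE1 element bound by the repressor REST, spelled as GCTGTCC, any 2 bases, and GGTGCT.
Gria2: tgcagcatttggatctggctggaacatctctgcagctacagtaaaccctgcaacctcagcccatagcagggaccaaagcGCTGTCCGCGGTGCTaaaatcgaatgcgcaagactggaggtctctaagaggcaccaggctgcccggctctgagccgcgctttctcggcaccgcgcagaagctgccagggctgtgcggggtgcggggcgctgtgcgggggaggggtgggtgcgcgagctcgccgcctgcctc
Grik3: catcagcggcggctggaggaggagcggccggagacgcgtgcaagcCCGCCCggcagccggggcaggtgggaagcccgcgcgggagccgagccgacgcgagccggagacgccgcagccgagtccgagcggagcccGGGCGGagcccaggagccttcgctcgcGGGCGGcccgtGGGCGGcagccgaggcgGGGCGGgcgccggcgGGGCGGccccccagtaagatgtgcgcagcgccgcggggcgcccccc
Gabrg1: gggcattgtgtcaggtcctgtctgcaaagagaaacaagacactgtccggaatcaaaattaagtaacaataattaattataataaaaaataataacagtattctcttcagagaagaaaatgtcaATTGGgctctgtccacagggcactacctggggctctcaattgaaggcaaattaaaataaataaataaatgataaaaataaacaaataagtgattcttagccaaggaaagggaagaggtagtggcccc
Gabra2: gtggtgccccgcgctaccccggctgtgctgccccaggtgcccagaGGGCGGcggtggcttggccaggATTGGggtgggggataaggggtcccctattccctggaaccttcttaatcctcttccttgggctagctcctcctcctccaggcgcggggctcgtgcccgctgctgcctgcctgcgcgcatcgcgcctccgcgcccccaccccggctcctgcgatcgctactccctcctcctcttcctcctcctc
In these 4 windows matches to different motifs overlapped 0 times.

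The Gria2 window held the RE1-like core, which was present in 9 of 32851 promoter windows of the table (0.0274%) and in no other of the 31 members found there. This motif was chosen with the Gria2 sequence in view. The Grik3 window held 6 GC boxes and was 82.0% G or C, against a median of 52.4% over all windows. A GC box was found in 32.7% and a CCAAT box in 33.8% of all windows. Among the 31 members, 17 and 14 had one in any of their windows. Some members, such as Gabrb2 and Grm8, have several windows, so these counts and the shares of single windows are not like for like. The Gabrg1 window was 35.6% G or C with 1 CG dinucleotide and 1 CCAAT box, while that of Gabra2 was 70.0% G or C with 18 CG dinucleotides. TATAAA, found in 12.4% of all windows, was in 0 of the 4 shown. These matches describe the letters and show neither binding nor use of a site.

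Among the AMPA receptor subunits, Gria2 had the lowest p of the 40 members. Gria2 encodes GluA2, whose edited form makes AMPA channels nearly impermeable to calcium. Its log2 values were 8.91, 8.86 and 9.06 in the third ventricle arrays, against 9.49, 9.76 and 9.59 in the lateral ventricle arrays. All 3 arrays of the third ventricle lay below all 3 of the lateral ventricle, and all 6 lay far above the gauge. The means were 8.94 ± 0.10 and 9.61 ± 0.14 (SD, n = 3 each), a difference of -0.67 (SE 0.11, 95% interval -0.92 to -0.42), which is 0.627-fold. The adjusted p was 0.0756 in limma and ranged from 0.0119 to 0.375 over 13 alternatives, 2 of which passed. In the reference gene order Gria2 lies next to Glrb, the beta subunit of glycine receptors, which had 6.53, 6.74 and 6.96 in the third ventricle arrays, against 7.61, 7.22 and 7.69 in the lateral ventricle arrays. The Glrb groups did not overlap either, and they differed by -0.76 (limma adjusted p = 0.148).

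Gria3 and Gria4, the other AMPA subunits above background in every array, differed little. Gria3 (GluA3) had 8.15, 8.20 and 8.36 in the third ventricle arrays, against 8.02, 8.25 and 8.47 in the lateral ventricle arrays. Its groups overlapped fully, with a difference of -0.0091 (95% interval -0.31 to 0.29). Gria4 (GluA4) had 6.54, 6.51 and 6.51 in the third ventricle arrays, against 6.47, 6.39 and 6.34 in the lateral ventricle arrays. Its groups did not overlap, but the difference was only 0.12 (-0.08 to 0.32, limma adjusted p = 0.620). Gria1 (GluA1) lay near the gauge, above it in 2 of 3 arrays of the third ventricle and in 0 of 3 of the lateral ventricle, with means of 5.11 and 4.80. The AMPA list thus held 1 member, Gria2, with an interval below 0 and 1, Gria1, with an interval above 0, of which neither passed after adjustment.

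Kainate receptor subunits showed their largest difference in Grik3 (GluK3), a subunit of channels with low sensitivity to glutamate. Grik3 values were 5.12, 5.11 and 5.24 in the third ventricle arrays, against 6.03, 6.11 and 5.59 in the lateral ventricle arrays. The groups did not overlap, and the third ventricle arrays lay at the gauge, 2 of 3 just above it. The means were 5.16 ± 0.07 and 5.91 ± 0.28 (SD, n = 3 each), a difference of -0.75 (SE 0.14, 95% interval -1.08 to -0.42, limma adjusted p = 0.116). Without lateral ventricle array 2 the difference was -0.66 (adjusted p = 0.0261), and without array 3 it was -0.91 (adjusted p = 0.0496).

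The kainate subunits Grik2, Grik4 and Grik5 had overlapping groups. Grik2 (GluK2), a main channel-forming subunit, had 7.56, 7.29 and 7.25 in the third ventricle arrays, against 7.84, 7.25 and 7.15 in the lateral ventricle arrays. Array 1 was the highest in both groups, and the difference was -0.046 (95% interval -0.47 to 0.38). Grik5 (GluK5), which needs a partner such as Grik2 to form channels, averaged 6.04 ± 0.22 and 6.20 ± 0.08 in the third and the lateral ventricle cultures (SD, n = 3 each). Its difference of -0.16 had an interval of -0.45 to 0.13. Grik4 (GluK4), of the same kind, lay just above the gauge at 5.21 to 5.33 in the third and 5.05 to 5.27 in the lateral ventricle arrays. Grik1 (GluK1) had 4.30, 4.34 and 4.22 in the third ventricle arrays, against 4.35, 4.65 and 4.36 in the lateral ventricle arrays. Its groups did not overlap, but all 6 values lay below background (limma adjusted p = 0.590).

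Of the NMDA receptor genes, the Grin3 pair lay above background and the Grin2 genes did not in most arrays. Grin3a and Grin3b encode glycine-binding GluN3 subunits, which lower the calcium permeability of NMDA receptors. Grin3a had 5.96, 6.01 and 6.06 in the third ventricle arrays, against 6.29, 6.20 and 5.95 in the lateral ventricle arrays. Grin3b had 5.52, 5.56 and 5.52 in the third ventricle arrays, against 5.58, 5.65 and 5.44 in the lateral ventricle arrays. In both the groups overlapped, and the differences were -0.14 (95% interval -0.40 to 0.12) and -0.023 (-0.24 to 0.19). Grin2a, Grin2b and Grin2d, which encode glutamate-binding subunits, were below background in 6 of 6 arrays, and Grin2c was above it in 1 of 3 arrays of each region. Grin2c had 5.09, 4.72 and 4.93 in the third ventricle arrays, against 4.74, 5.27 and 5.11 in the lateral ventricle arrays, which overlapped. Grin2a had 4.26, 4.52 and 4.02 in the third ventricle arrays, against 3.75, 3.64 and 3.49 in the lateral ventricle arrays. It was among the 5 members that passed without lateral ventricle array 2, but as all its values lay below the gauge no difference in level is read from them.

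Metabotropic glutamate receptors gave 1 of the higher and 1 of the lower values. Grm5 (mGlu5) couples to Gq and raises cytosolic calcium. Its values were 8.96, 9.13 and 9.11 in the third ventricle arrays, against 8.13, 8.92 and 8.57 in the lateral ventricle arrays. The groups did not overlap, but lateral ventricle array 2 lay just under the third ventricle arrays. The means were 9.07 ± 0.09 and 8.54 ± 0.40 (SD, n = 3 each), a difference of 0.53 (SE 0.19, 95% interval 0.10 to 0.96, limma adjusted p = 0.340), and 0.72 without lateral ventricle array 2 (adjusted p = 0.0200).

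Grm3 (mGlu3), a Gi-coupled receptor also found on glia, ran the other way. Its values were 7.64, 7.42 and 7.43 in the third ventricle arrays, against 7.87, 7.94 and 7.87 in the lateral ventricle arrays. The groups did not overlap, and the lateral ventricle arrays, array 2 included, lay close together. The difference was -0.40 (SE 0.10, 95% interval -0.62 to -0.17, limma adjusted p = 0.219), and it was -0.47 to -0.36 with any 1 array left out. Grm2 (mGlu2), the other receptor of that group, had 5.49 to 5.69 in the third and 5.57 to 5.65 in the lateral ventricle arrays, a difference of -0.056. Of the remaining Gi-coupled receptors, Grm4 was above background in 1 of 6 arrays and Grm6 in 3 of 6, while Grm7 and Grm8 were in 0 of 6. Grm4 had 4.93, 4.73 and 5.10 in the third ventricle arrays, against 4.78, 5.39 and 5.001 in the lateral ventricle arrays. Grm6 had 5.07, 4.92 and 5.24 in the third ventricle arrays, against 5.07, 5.03 and 5.18 in the lateral ventricle arrays. Both genes lay around the gauge with overlapping groups.

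**Figure D2:**
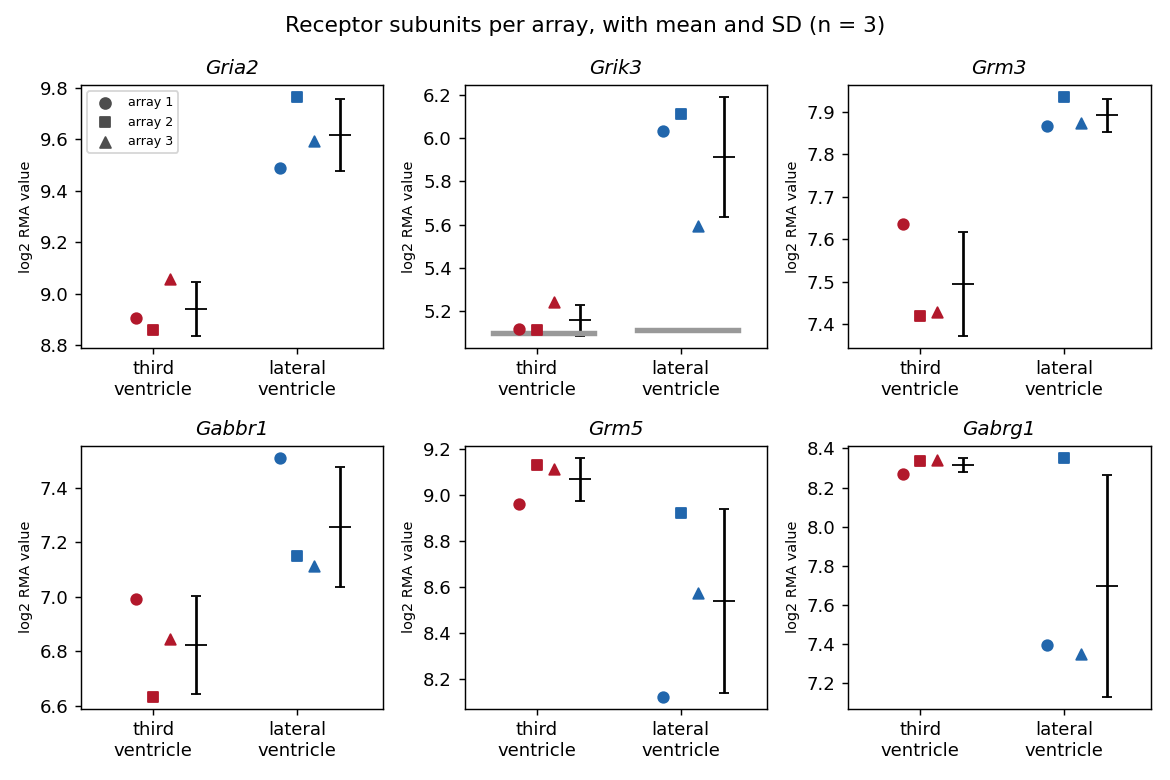
Log2 RMA values (y axis, own range in each panel) of 6 receptor subunits in the 3 arrays of the third ventricle (red, left) and the lateral ventricle (blue, right), with symbols for the array number, mean and SD in black, and the mean background gauge as a grey bar where it falls in the panel. Gria2, Grik3, Grm3 and Gabbr1 are lower in all 3 arrays of the third ventricle, and in the Gabrg1 panel lateral ventricle array 2 (8.35) sits with the third ventricle arrays (8.27 to 8.34).

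GABA-A receptor genes lay mostly at background, with Gabrg1 as the exception. Of the 16 measured, 1 was above background in all 6 arrays, 4 in some and 11 in none. Gabrg1 encodes the gamma1 subunit, which gives receptors of low benzodiazepine sensitivity. Its values were 8.27, 8.34 and 8.34 in the third ventricle arrays, against 7.39, 8.35 and 7.35 in the lateral ventricle arrays. Lateral ventricle arrays 1 and 3 were low, and array 2 was as high as the third ventricle arrays, so the groups overlapped. The means were 8.32 ± 0.04 and 7.70 ± 0.57 (SD, n = 3 each), a difference of 0.62 (SE 0.25, 95% interval 0.05 to 1.18, limma adjusted p = 0.366). Without lateral ventricle array 2 the difference was 0.95 (adjusted p = 0.000915), so that value describes lateral ventricle arrays 1 and 3 only.

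In the reference gene order Gabrg1 lies beside Gabra2, with Gabra4 and Gabrb1 just beyond the gene Cox7b2. Gabra2, an alpha subunit, was above background in 1 of 6 arrays, and Gabra4 and Gabrb1, an alpha and a beta subunit, in 0 of 6. Gabra2 had 5.01, 5.12 and 4.78 in the third ventricle arrays, against 4.73, 4.83 and 5.004 in the lateral ventricle arrays, with overlapping groups. Gabrg3, a further gamma subunit, was above it in 2 of 3 arrays of the third ventricle and in 0 of 3 of the lateral ventricle. It had 5.17, 5.49 and 5.11 in the third ventricle arrays, against 4.76, 4.93 and 4.96 in the lateral ventricle arrays, with no overlap. The difference was 0.38 (limma adjusted p = 0.324). Set against the gauge of the lateral ventricle arrays, the third ventricle mean was 1.11-fold, with array 3 just below its own gauge. The same ratio was 0.997 for Gria1 and 0.907 for Gabra2. For the lateral ventricle mean against the gauge of the third ventricle arrays it was 0.902 for Gabrb2 and 0.973 for Grm4. Gabra5, the neighbour of Gabrg3, was below background in 6 of 6 arrays.

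Gabrb2, a beta subunit, had 4.64, 4.56 and 4.59 in the third ventricle arrays, against 5.04, 5.12 and 4.69 in the lateral ventricle arrays, above background in 1 of 6. Its groups did not overlap, with a difference of -0.35 (limma adjusted p = 0.340). The other probe sets of Gabrb2 differed by -0.44 and -0.32, but lay below the gauge in all 6 arrays, so no difference in level is read from them. Gabrd, the delta subunit of extrasynaptic receptors, lay around the gauge, above it in 2 arrays of the third and 1 of the lateral ventricle. It had 5.08, 5.26 and 4.92 in the third ventricle arrays, against 5.12, 5.13 and 5.04 in the lateral ventricle arrays, which overlapped, and it differed by -0.012 (95% interval -0.26 to 0.24). The remaining GABA-A genes, Gabra3, Gabra4, Gabra5, Gabra6, Gabrb1, Gabre, Gabrp, Gabrq and the retinal rho subunits Gabrr1, Gabrr2 and Gabrr3, were below background in all 6 arrays. Over the 17 members that were, the values ran from 2.88 to 4.85.

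The GABA-B receptor genes differed in opposite directions, and neither passed. Gabbr1, the subunit that binds GABA, had 6.99, 6.63 and 6.84 in the third ventricle arrays, against 7.51, 7.15 and 7.11 in the lateral ventricle arrays. Gabbr2, the subunit that couples to the G protein, had 5.76, 6.03 and 5.62 in the third ventricle arrays, against 5.50, 5.31 and 5.59 in the lateral ventricle arrays. Neither gene's groups overlapped, though in both the nearest arrays of the groups lay close together. The differences were -0.43 for Gabbr1 (95% interval -0.76 to -0.11, limma adjusted p = 0.320) and 0.34 for Gabbr2 (0.04 to 0.64, limma adjusted p = 0.360).

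**Figure D3:**
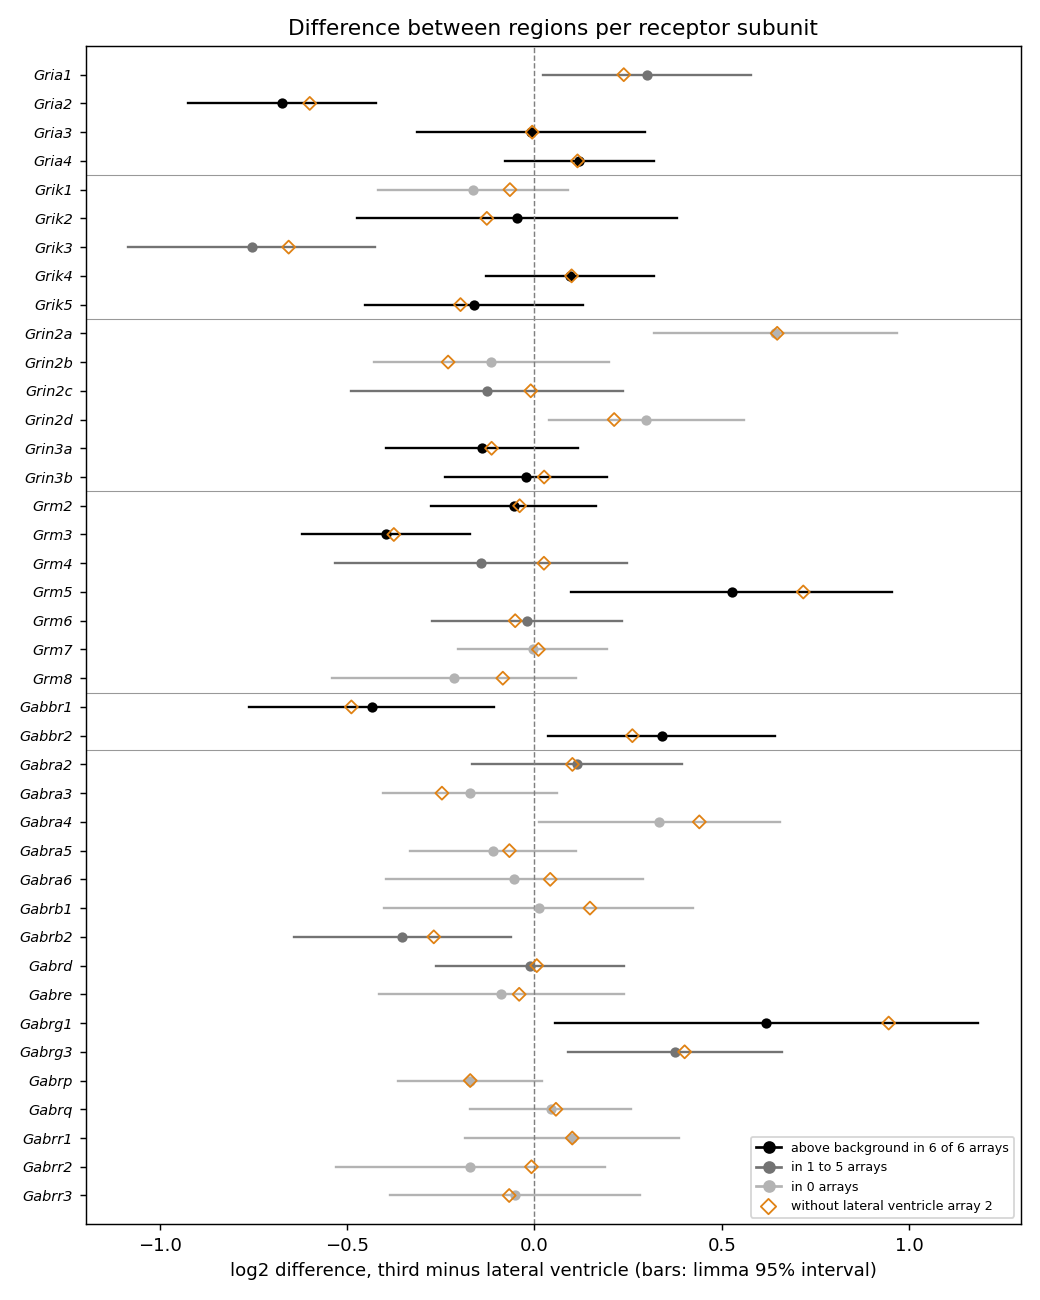
Log2 difference, the third minus the lateral ventricle (x axis), of each receptor subunit (rows) with its limma 95% interval, in black where the gene was above background in all 6 arrays, in dark grey where it was in 1 to 5, and in light grey where it was in 0, for which no difference in level is read. Open diamonds give the difference without lateral ventricle array 2, which is larger for Gabrg1 (0.95) and Grm5 (0.72) and smaller for Gria2 (-0.60) and Grik3 (-0.66).

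Markers of cell state moved with some of these values. Relative to each gene's mean, the median of 5 markers of dividing cells was 0.57, 0.52 and 0.61 in the third ventricle arrays, against -1.52, 0.57 and -0.84 in the lateral ventricle arrays. Their summed log2 values were 49.5 to 49.6 in the third and 41.0 to 49.6 in the lateral ventricle arrays. Gabrg1 and Grm5 were likewise low in lateral ventricle arrays 1 and 3 and higher in array 2, and the part of cell division in their values was not tested. Gria2 and Grik3 were also highest in lateral ventricle array 2, but lateral ventricle arrays 1 and 3 lay above the third ventricle arrays in both. The part of cell division in these values was not tested either.

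Oligodendrocyte progenitor markers differed among themselves. Of 8, all above background, 5 were lower and 3 higher in the mean of the third ventricle arrays. Their centred median was -0.09, -0.24 and -0.30 in the third ventricle arrays, against 0.34, 0.27 and 0.26 in the lateral ventricle arrays. Their summed log2 values were 55.1 to 56.0 in the third and 59.7 to 60.9 in the lateral ventricle arrays. Pdgfra and Lhfpl3 passed as lower (differences of -1.79 and -1.22, limma adjusted p = 0.00707 and 0.00746). The other 6 did not pass, with differences of -1.35 for Gpr17, -0.74 for Sox10, -0.092 for Cspg4, 0.094 for Olig2, 0.13 for Nkx2-2 and 0.17 for Olig1. Neuronal markers had summed values of 61.7 to 63.0 in the third and 64.1 to 65.7 in the lateral ventricle arrays, with 0 of 10 passing. Stmn2 and Syt1 were below background in all 6 arrays. Of the 10, 7 were lower and 3 higher in the mean of the third ventricle arrays. Dcx, of young neurons, had the largest difference toward lower values at -1.63 (limma adjusted p = 0.136), and Elavl4 the largest toward higher ones at 0.41 (limma adjusted p = 0.356), with no overlap of groups in either. Map2 and Nefl, the other higher ones, differed by 0.24 and 0.0996. Of the lower ones besides Dcx, Tubb3 differed by -0.60, Elavl3 by -0.33, Stmn2 by -0.31, Snap25 by -0.25, Rbfox3 by -0.077 and Syt1 by -0.016. An unadjusted limma p below 0.05 was found for 5 of 10 neuronal markers (50.0%), against 12.6% of all genes. Of these, 4 were lower, Stmn2 included, and 1 was higher. The part of such cells in the receptor values was not tested, and in these bulk cultures fewer cells of a type and less RNA per cell cannot be told apart. Markers of radial glia and stem cells were above background in all 6 arrays for 7 of 7 genes, against 55.3% of all genes. Those of astrocytes were for 6 of 7, of ependyma for 2 of 3 and of endothelium for 0 of 4. The first count fits the label of the cultures, but beside that of astrocytes it does not single out stem cells. Of the astrocyte markers 0 passed, with 5 lower and 2 higher in the mean of the third ventricle arrays. Apoe differed by -1.35 and Sparcl1 by 0.94. Of the microglial markers, Aif1, Csf1r and P2ry12 were below background in all arrays, while Cx3cr1 was above it in 5 of 6.

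**Figure D4:**
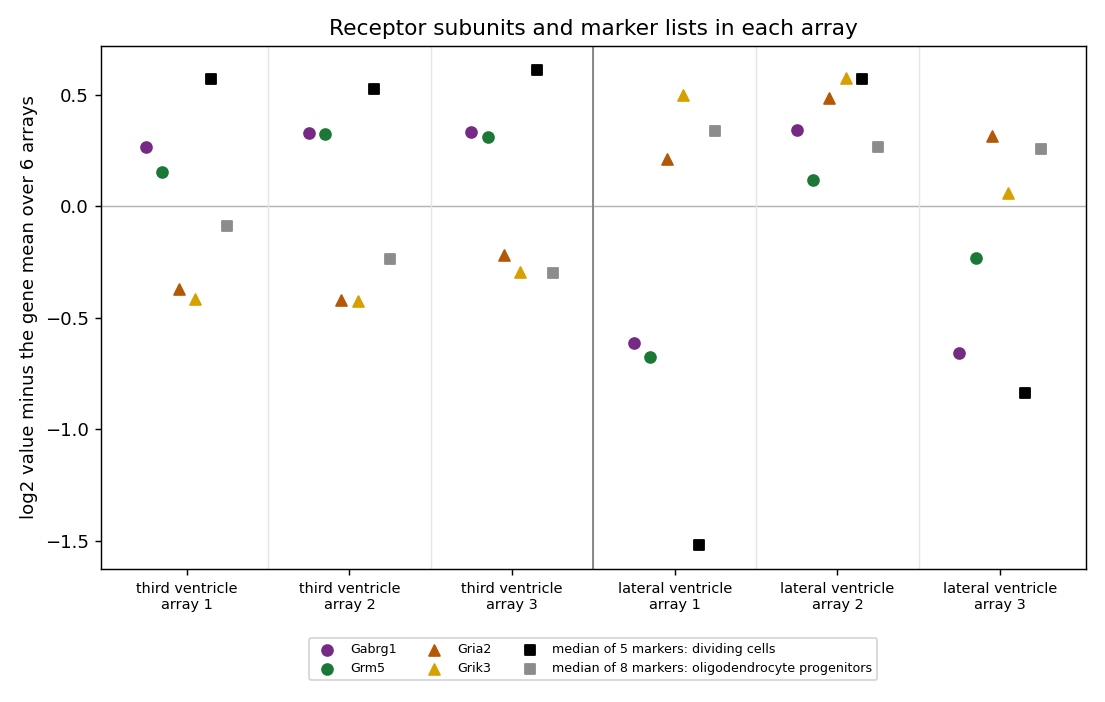
Log2 value minus the mean over 6 arrays (y axis) in each array of the third and the lateral ventricle (x axis) for Gabrg1, Grm5, Gria2 and Grik3, and the median of the same for 5 dividing cell markers and 8 oligodendrocyte progenitor markers. Gabrg1, Grm5 and the dividing cell markers are low in lateral ventricle arrays 1 and 3, and Gria2, Grik3 and the median of the progenitor markers are higher in all 3 lateral ventricle arrays.

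Genes that make, move or anchor the transmitters and receptors were read from 7 lists, with other ligand-gated channels as an eighth. Of 101 measured genes, 0 passed (limma), and 14 (13.9%) had an unadjusted p below 0.05, against 12.6% of all genes. Of the 101, 54 (53.5%) lay above background in all 6 arrays, against 55.3% of all genes. With the other ligand-gated channels left aside, 49 of 71 (69.0%) did. Without lateral ventricle array 2, 10 (9.9%) passed, 2 higher and 8 lower, against 8.25% of all genes. The shares by limma were thus near those over all genes, while the share above background depended on whether those channels were counted.

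Vesicular transporters, which load glutamate or GABA into synaptic vesicles, were at background. Slc17a7 was above it in 1 of 3 arrays of each region, and Slc17a6, Slc17a8 and Slc32a1 in 0 of 6. The GABA-synthesising enzyme genes Gad1 and Gad2 were above background in 1 and 0 of 6 arrays. Of the uptake transporters, 5 of 10 (50.0%) were above background in all 6 arrays, near the 55.3% of all genes. Slc1a3, the glial glutamate transporter GLAST, averaged 9.34 ± 0.04 in the third and 9.46 ± 0.11 (SD, n = 3 each) in the lateral ventricle cultures. It differed by -0.12 (limma adjusted p = 0.656).

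Slc6a11, the GABA transporter GAT-3, had 9.36, 9.04 and 9.18 in the third ventricle arrays, against 8.23, 8.56 and 8.05 in the lateral ventricle arrays. Its groups did not overlap, and the difference was 0.91 (95% interval 0.57 to 1.26, limma adjusted p = 0.0756, and 0.00185 without lateral ventricle array 2). Slc1a1, the glutamate transporter EAAC1 of neurons, was named after its values were seen. It had 5.27, 4.99 and 4.87 in the third ventricle arrays, against 7.24, 5.92 and 6.55 in the lateral ventricle arrays. The groups did not overlap, with a difference of -1.53 (-2.21 to -0.85, limma adjusted p = 0.119, and 0.00143 without lateral ventricle array 2). Glul, which turns glutamate into glutamine, differed by -0.089 and Glud1, glutamate dehydrogenase, by -0.24.

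Auxiliary subunits and scaffolds were above background more widely, 16 of 20 (80.0%) and 18 of 22 genes (81.8%) in all 6 arrays, against 55.3% of all genes. Neto2, a partner of kainate receptors, had 9.24, 9.31 and 9.14 in the third ventricle arrays, against 7.83, 9.43 and 8.10 in the lateral ventricle arrays. It thus followed the same split of the lateral ventricle arrays as Gabrg1, with a difference of 0.77 (limma adjusted p = 0.419) and of 1.26 without array 2 (adjusted p = 0.000707). Clptm1, which holds GABA-A receptors back from the surface, differed by -0.013. Of the scaffolds, Gabarap, a binding partner of GABA-A receptors, differed by -0.34 and Dlg1, a postsynaptic density protein, by -0.17.

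Of the chloride transporters, Slc12a2 (NKCC1), which brings chloride into cells, was above background in all 6 arrays and differed by -0.10 (95% interval -0.39 to 0.18). Slc12a5 (KCC2), the chloride exporter of mature neurons, was above it in 1 of 6, and Slc12a4 differed by 0.047. Among the RNA editing enzymes, Adarb1, which edits the Gria2 transcript, and Adar were above background in all 6 arrays and differed by 0.036 and -0.054, and Adarb2 was below it in all. The arrays do not report the edited base. Of 30 other ligand-gated channel genes 5 (16.7%) lay above background in all 6 arrays, against 55.3% of all genes. The 5 were Glrb, P2rx7, Chrna4, Chrnb4 and Chrng. P2rx7, an ATP-gated channel, differed by 0.28 (limma adjusted p = 0.458).

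**Figure D5:**
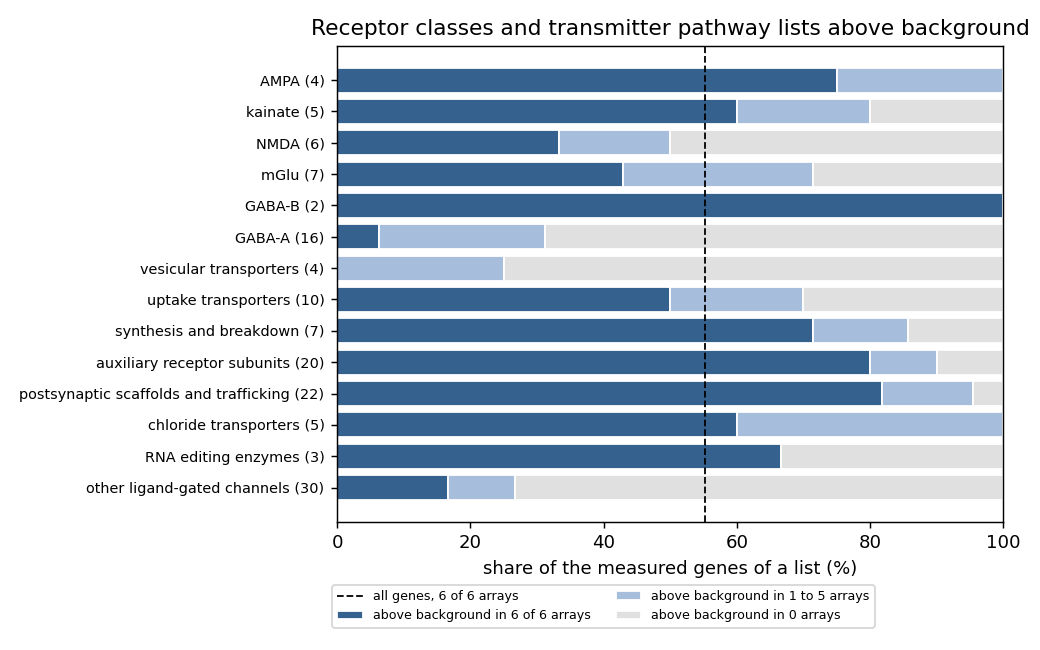
Share of measured genes (x axis, percent) of each receptor class and transmitter pathway list (rows, number measured in brackets) that lay above the background gauge in 6, in 1 to 5 or in 0 of the 6 arrays. The dashed line marks the 55.3% of all genes above it in 6 of 6. GABA-A subunits and vesicular transporters have the shortest dark bars, with 1 of 16 and 0 of 4 genes.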

How the data were processed

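The table holds 6 Affymetrix arrays, 3 per region, with 35556 probe sets. Per the submitters' processing notes the authors made the deposited log2 values with RMA in Affymetrix Expression Console 1.1, and per the labels' protocols the RNA was amplified with the NuGEN WT-Ovation Pico system. Their other settings were not given in the sources used here. RMA compresses dim values, and amplification can add spread between arrays. With 3 arrays per region the precision is low. The platform annotation gave 1 symbol to 21789 probe sets, several to 1621, and did not list 12146. The files name no genome build. Some genes of these receptor families are not reported here.

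The third ventricle was set against the lateral ventricle, gene by gene, with limma 3.58.1 (lmFit, eBayes) in R 4.3.3 over all 19938 genes, with Benjamini-Hochberg adjustment, a threshold of 0.05 and no filter. Intervals are unadjusted. For 1 gene, the smallest two-sided p of an exact permutation test is 0.1 with 3 arrays in each group. The labels call the arrays biological replicates, but tie no number to an animal. The p-values therefore reflect only how these arrays vary, which may be technical in part. The fit was tested on simulated data.

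Members, lists and gauge were chosen with earlier results of these data known. Members above background in any array were named with values and the others by range, except Grik1 and Grin2a, whose values are given after they were seen. Lists were named by passing genes, or otherwise by the 2 with the highest mean. Glrb, Slc1a1, the neuronal and non-passing progenitor markers, Slc12a5, the vesicular transporters, Gad1, Gad2 and the markers at background were named after their values were seen. Alternatives covered normalization, averaged probe sets, leaving out the dimmest 40% of genes, prior, array weights, a replicate block, gauges and arrays left out.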

Additional observations from a re-analysis of the deposited data

How the results depend on the processing

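Counts turned mainly on single arrays. Leaving out 1 array gave 4 to 1644 passing genes in all (46 with 6 arrays), 0 to 5 receptor subunits (0) and 0 to 10 pathway genes (0). The counts of 4 were without array 2 or 3 of the third ventricle, 7 without its array 1, 25 and 20 without lateral ventricle arrays 1 and 3, and 1644 without lateral ventricle array 2. With array weights 158 genes passed, among them 1 receptor subunit, Gria2 (difference -0.65, adjusted p = 0.0396), and 2 pathway genes, Slc1a1 and Slc6a11. The other 6 alternatives of the fit moved the count of all genes by less than 1.5 times and passed 0 of the 40, with 15 of the 40 left by the filter. The count of members above background moved from 14 to 8 with the stricter percentile and to 22 with vomeronasal receptor genes, and to 15 at most otherwise. Dim probe sets limit what can be compared, since 17 members had no array above the gauge.

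Of 495 alternative values of single members, 466 kept sign and side of the threshold, 7 passed newly and 22, from 11 members, changed sign, none of them passing. With 1 array left out, the lowest and highest differences of these members were -0.17 to 0.074 for Gabra6, -0.16 to 0.15 for Gabrb1, -0.098 to 0.071 for Gabrd, -0.012 to 0.21 for Gabrr1, -0.18 to 0.093 for Gabrr3, -0.12 to 0.10 for Gria3, -0.18 to 0.17 for Grik2, -0.082 to 0.026 for Grin3b, -0.28 to 0.025 for Grm4, -0.10 to 0.059 for Grm6 and -0.031 to 0.023 for Grm7. Grin3b was at 0.0075 with array weights, and Grm7 at 0.011 with quantile normalization again and 0.023 with cyclic loess. The cause was not tested, and Gabra6, Gabrb1, Gabrr1, Gabrr3 and Grm7 were below background in all 6 arrays.

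With the replicate number as a block, 57 genes and 0 of the 40 members passed. Deviations of same-numbered arrays correlated at 0.24, 0.11 and 0.07, each the best match of its array, against -0.15 to 0.04 for the other pairs. Whether same-numbered arrays share an animal or a batch was not tested, and the main fit used no pairing.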
